A study of Mus musculus with 4 samples.

Results

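The 32 genes described here encode the machinery that starts, nucleates, extends and closes the autophagosome and brings it to the lysosome. They were chosen by gene symbol and not by a cut on their values, though earlier results of these data were known. All 32 were present among the 17746 symbols of the deposited table. They fall into 5 classes: the ULK complex with 5 genes, the class III PI3-kinase (PI3K) complexes with 8, lipid transfer and WIPI proteins with 8, the ATG12-ATG5 conjugation system with 5, and fusion with the lysosome with 6. RNA was sequenced from lung tumour cells of RPΔG mice, which carry floxed alleles of Rb1 and Trp53 (Rb1fl/fl; Trp53fl/fl) and a knocked-in autophagy probe, GFP-LC3-RFP-LC3ΔG, and which develop tumours that model small cell lung cancer (SCLC). All groups thus share the floxed alleles and the probe. The sources used here do not give the agent or driver that deleted the floxed genes, the age of the mice or the number of animals behind a library. Live cells that were positive for EpCAM and RFP were sorted into 2 GFP-negative libraries and 2 GFP-positive libraries.

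In a cell that needs autophagy, the ULK kinase complex is activated first and recruits a PI3K complex built around VPS34 and Beclin 1, which marks the forming membrane with the lipid PI3P. WIPI proteins read PI3P, ATG2 and ATG9 supply and distribute lipid, and the ATG12-ATG5-ATG16L1 conjugate then attaches LC3 to the membrane. RAB7 and the SNARE proteins syntaxin 17, SNAP29 and VAMP8 fuse the closed vesicle with the lysosome. Much of this machinery is regulated through phosphorylation, lipid binding and protein turnover, and mRNA levels do not measure flux.

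The probe is split inside the cell into GFP-LC3, a substrate of autophagy, and a stable RFP fragment. The sources disagree on its reading. High flux is assigned to GFP-positive cells by the sample titles but to GFP-negative cells by the series' design text, so the groups carry their GFP names here and values are not read as flux. Separate animals are not named for the libraries of a group, and p-values therefore measure only the spread between these libraries, which may be technical.

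Counts totalled 73997175 and 69676412 in GFP-negative replicates 1 and 2, and 51994432 and 67536465 in GFP-positive replicates 1 and 2; all values below follow this order of replicates. GFP-positive replicate 1 stands apart: 34.2% of all symbols had any count there, against 88.5% to 99.3% in the other libraries. Levels are given in CPM, the counts of a gene per 1000000 counts of its library's TMM-scaled total. Where a gene had 0 counts, up to 3 counts cannot be told from 0, which is 0.0264 and 0.0451 CPM in the GFP-negative libraries, against 0.080 and 0.0471 CPM in the GFP-positive ones (counting error only). Rb1 had 8.996 and 0 CPM in GFP-negative and 0 and 4.06 CPM in GFP-positive libraries, and Trp53 13.1 and 4.37 against 20.4 and 62.6 CPM. Gene-level counts do not show which exons were lost, so neither gene checks the deletion. Epcam, which encodes the protein used in the sort, had counts in all 4 libraries, and the 9 neuroendocrine tumour markers summed to 4572 and 1385 CPM in GFP-negative and 3299 and 1137 CPM in GFP-positive libraries. Chga and Chgb of these were at 0 in GFP-positive replicate 1. The 14 macrophage markers in the table summed to 1211 and 21930 CPM in GFP-negative and 116700 and 68360 CPM in GFP-positive libraries, with Itgax at 0 in GFP-positive replicate 1.

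No member of the machinery passed the test between the groups. The quasi-likelihood test of edgeR, adjusted over all genes by Benjamini-Hochberg, called 0 of 32 members, each with an adjusted p of 1.0, where it called 0.0982% of the 16301 genes tested. At an unadjusted p under 0.05 there were 0 members, against 3.1% of all tested genes, and the smallest unadjusted p was 0.116, for Uvrag. DESeq2's Wald test also called 0 of the 32. All 32 passed the filter on low counts. The median fitted log2 change (GFP-negative minus GFP-positive) was 1.02 for the members and 0.91 for all tested genes, so the members lay 0.11 above the general shift. Without GFP-negative replicate 1 they lay below it, with medians of -0.35 for the members and 0.40 for all genes. A fitted change above 0 was found for 23 of 32 members, or 71.9%, against 68.1% of all tested genes. The members' median was 0.49 without GFP-positive replicate 1 (0.29 for all genes), and its sign rests on GFP-negative replicate 1. An exact permutation test of a single gene over 2 against 2 libraries cannot give a p below 0.333 and was not used.

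Without GFP-positive replicate 2, where GFP-positive replicate 1 alone stands for its group, edgeR called 45.2% of 16804 genes and 18 of the 32 members. Of these, 17 were higher in the GFP-negative libraries, a direction in which 42.7% of all genes were called. The remaining call, Uvrag, was lower, as were 2.49% of all genes.

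**Figure D1:**
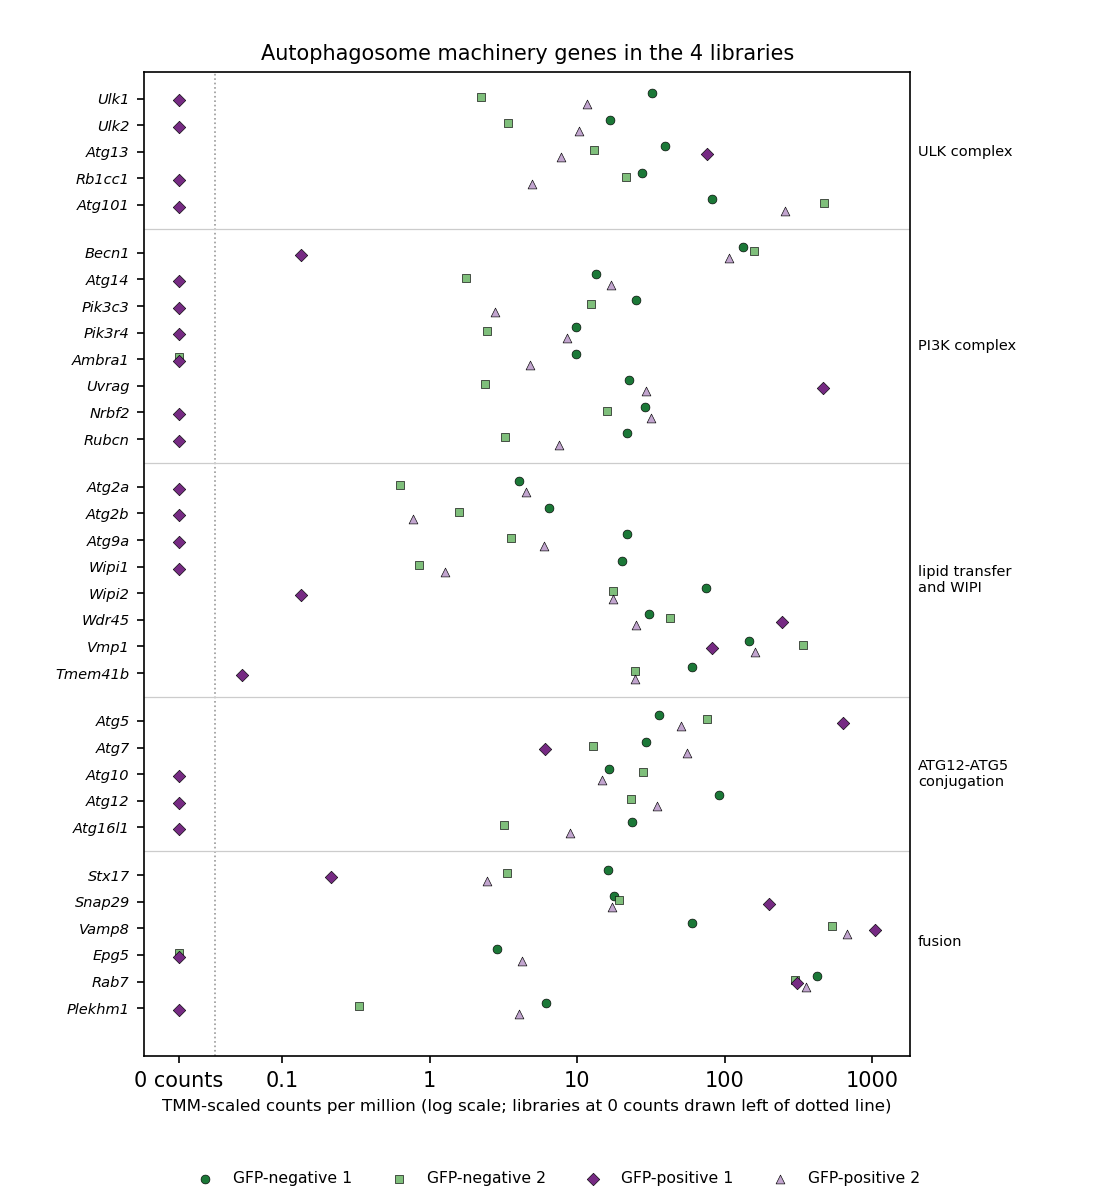
Level of each of the 32 genes in the 4 libraries, in TMM-scaled CPM on a log scale, grouped by class. Green symbols are the GFP-negative and purple symbols the GFP-positive libraries, and symbols left of the dotted line stand for 0 counts. GFP-positive replicate 1 (dark diamonds) is at 0 counts for 19 genes and is the highest of the 4 libraries for 6.

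How much of the machinery was detected differed within the groups. In the GFP-negative group, replicate 1 had counts for all 32 members and replicate 2 for 30. In the GFP-positive group, replicate 1 had counts for 13 and replicate 2 for all 32. Of those 13, Becn1, Wipi2, Tmem41b and Stx17 had 10 counts or fewer, which left 9 members with more than 10 counts, or 28.1%, beside 22.8% of all symbols. The 9 were Atg13, Uvrag, Wdr45, Vmp1, Atg5, Atg7, Snap29, Vamp8 and Rab7. In that library the ULK complex was represented by Atg13 alone, the PI3K complexes by Uvrag apart from 5 counts of Becn1, and the conjugation system by Atg5 and Atg7. GFP-positive replicate 1 also differed in markers of other cells. The 4 hepatocyte markers in the table summed to 23.5 and 319 CPM in GFP-negative and 27260 and 158 CPM in GFP-positive libraries, and 3 of these 4 were called lower (0.092% of all genes were called lower). Cyp2e1 of these was at 0 in both GFP-negative libraries and Alb at 0 in GFP-positive replicate 2. The 5 erythroid markers summed to 1572 and 5389 CPM against 45370 and 14330 CPM, with 2 called lower. The 6 B and plasma cell markers summed to 491 and 2569 against 0 and 554 CPM, and the 5 T and NK cell markers to 6.58 and 37.7 against 0 and 106 CPM, so every gene of both lists was at 0 in GFP-positive replicate 1. The 4 endothelial markers summed to 92.2 and 27.0 against 396 and 5.19 CPM, though Vwf and Kdr were at 0 in both GFP-positive libraries. The 5 alveolar type 2 markers summed to 95.7 and 2400 against 147 and 195 CPM. Of these, Sftpb, Sftpa1 and Abca3 were at 0 in GFP-positive replicate 1. In either list 0 were called. Fitted changes lay above 0 for 3 of 4 endothelial and 4 of 5 alveolar type 2 markers, beside 68.1% of all tested genes. The part of these cells in the members' values was not tested. In bulk RNA, fewer cells that use a gene and less RNA per cell cannot be told apart.

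Gene length moved with these differences. The annotated exons of the 9 members with more than 10 counts in GFP-positive replicate 1 had a median length of 3447 bases, against 6122 bases for the other 23. Over the 17315 symbols with a length the medians were 2909 and 3694 bases. In the GFP-negative group, 16 of 17 members longer than 5000 bases were higher in replicate 1 than in replicate 2, against 6 of 13 shorter members, with median log2 ratios of 2.27 and -0.12. Of all tested genes with a length, 3618 of 5099 longer and 3752 of 9280 shorter ones were higher in replicate 1. Their median log2 ratios were 1.04 and -0.47. This split was set after the data had been seen. Across 30 members Spearman's rho between exon length and that log2 ratio was 0.531 (Pearson's r with log2 length 0.594), and across 14379 genes it was 0.431 (0.389). For GFP-negative replicate 1 over GFP-positive replicate 2 rho was 0.354 across 32 members (0.365 across all genes with a length), and for GFP-negative replicate 2 over GFP-positive replicate 2 it was -0.267 across 30 members (-0.141). These are descriptions across genes that share their libraries and are not independent. The part of transcript length in the results below was not tested.

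**Figure D2:**
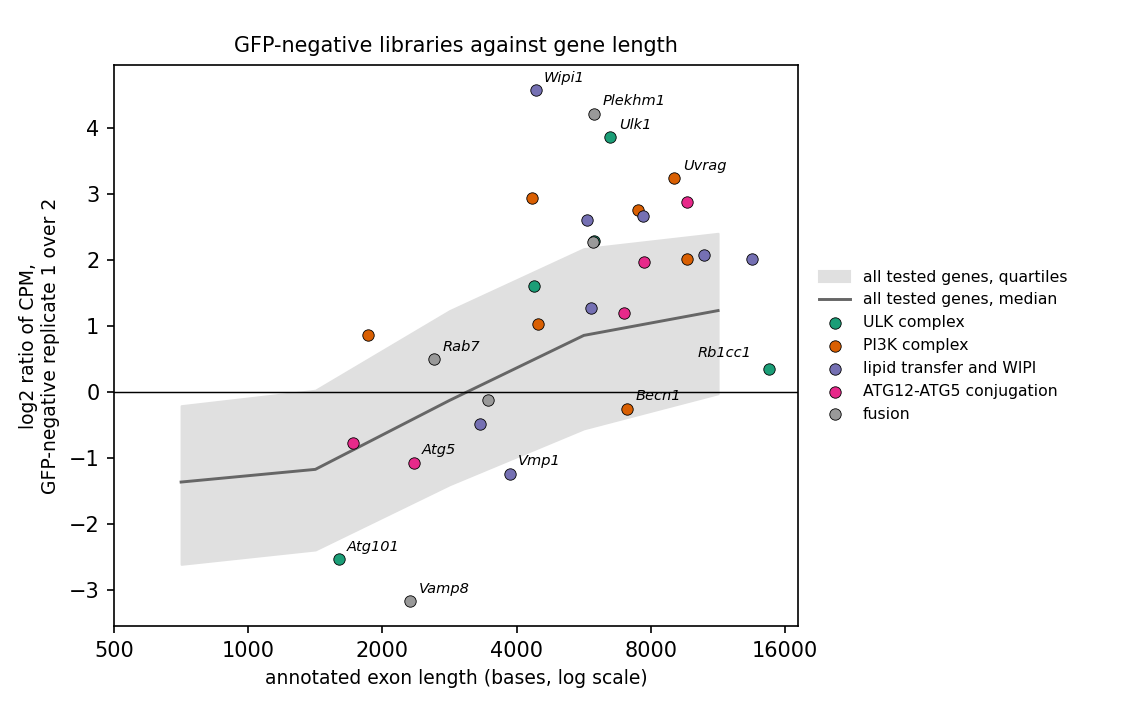
Log2 ratio of CPM between GFP-negative replicates 1 and 2 against the annotated exon length of each member with counts in both (30 points, coloured by class). The grey line and band are the median and quartiles of all tested genes in 5 length ranges, whose medians run from -1.36 below 1000 bases to 1.24 above 8000 bases. Short members such as Vamp8 and Atg101 lie low and long ones such as Ulk1 and Uvrag lie high. Others depart from this: Wipi1 (4410 bases) lies highest of all, while Rb1cc1 (14690 bases) and Becn1 (7065 bases) are nearly level between the replicates.

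Per length, a few genes made up most of the summed message of the machinery. On the deposited FPKM scale, which divides the counts by gene length and by the size of the library, the 32 members summed to 587 and 703 FPKM in GFP-negative and 688 and 605 FPKM in GFP-positive libraries. Vamp8, Rab7, Atg101 and Atg5, the 4 with the highest sum over the libraries, took 58.6% and 79.2% of this in GFP-negative and 79.1% and 82.1% in GFP-positive libraries. The fusion class held 45.4% and 41.5% in GFP-negative and 59.2% and 58.5% in GFP-positive libraries, so the groups did not overlap in its share (no test was made). Within the class, Rab7 made up 82.3% in GFP-negative replicate 1. Vamp8 made up 65.6% in GFP-negative replicate 2, and 71.9% and 67.2% in the GFP-positive libraries. The class share thus rests largely on these genes, and whether the groups stay apart without Vamp8 was not tested. Vamp8 alone held 42.6% of all members' FPKM in GFP-positive replicate 1. The ULK class ranged widest, with 16.05% and 35.3% against 1.63% and 22.3%, and Atg101 made up 73.3% and 98.2% of it in GFP-negative libraries and 96.6% in GFP-positive replicate 2. The PI3K class held 11.8% and 4.12% against 4.83% and 5.69%, and the lipid transfer class 16.9% and 12.8% against 8.89% and 7.64%. The groups did not overlap in the lipid transfer share either, which was higher in the GFP-negative libraries. Vmp1 made up 51.2% and 81.8% of this class in GFP-negative libraries and 73.2% in GFP-positive replicate 2. In GFP-positive replicate 1, Wdr45 made up 77.7% of it. Whether the groups stay apart without Vmp1 was not tested, and shares of the same total are not independent of each other. The conjugation class held 9.95% and 6.31% against 25.4% and 5.81%, and the value of 25.4% was 99.7% Atg5.

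**Figure D3:**
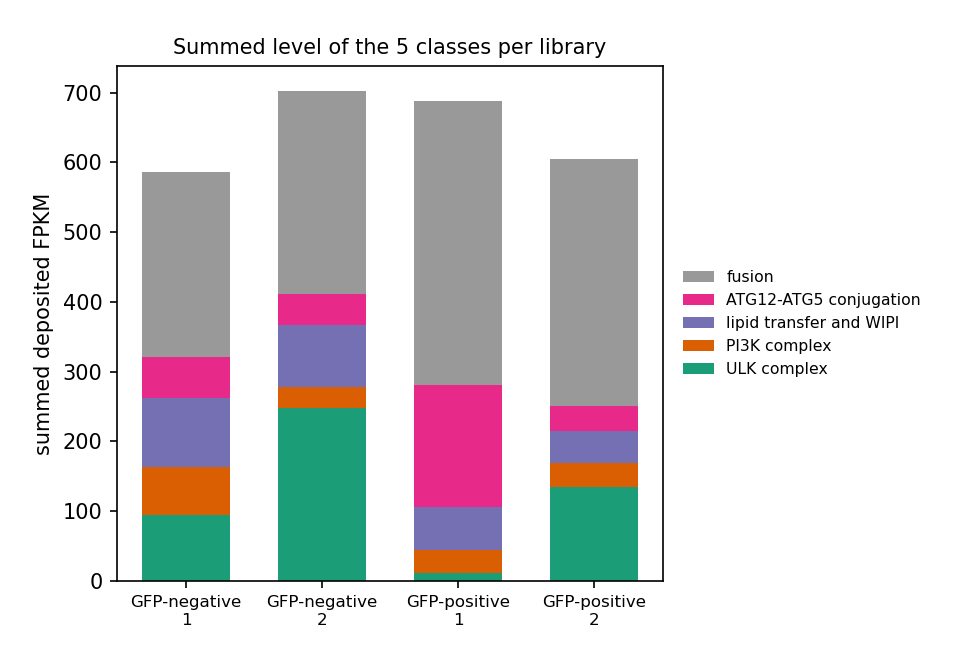
Deposited FPKM summed over the genes of each class, stacked, in the 2 GFP-negative and 2 GFP-positive libraries. Totals run from 587 to 703 FPKM. The fusion class is the tallest block in every library, and the conjugation block is taller in GFP-positive replicate 1 than in the other libraries, since Atg5 makes up 99.7% of it.

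The ULK complex is the kinase assembly that receives the starvation signal from mTORC1 and AMPK. Its catalytic subunits Ulk1 and Ulk2 had 32.3 and 2.22 CPM and 16.7 and 3.39 CPM in GFP-negative libraries, against 0 and 11.6 CPM and 0 and 10.3 CPM in GFP-positive libraries. For both kinases GFP-positive replicate 2 lay between the GFP-negative libraries. Rb1cc1, the scaffold FIP200 that holds the complex together, had 27.3 and 21.5 CPM in GFP-negative and 0 and 4.96 CPM in GFP-positive libraries. Both GFP-negative libraries lay above both GFP-positive libraries, with a log2 change of 3.30 ± 4.77 (SE), and of 2.29 without GFP-positive replicate 1. An antisense gene, 4732440D04Rik, shares 558 exonic bases with Rb1cc1, and the library kit does not mark strand. Atg13, the subunit whose phosphorylation state controls the kinase, had 39.3 and 12.9 CPM in GFP-negative and 76.1 and 7.81 CPM in GFP-positive libraries, so the groups overlapped. Atg101, which stabilises ATG13, had 81.6 and 469 CPM in GFP-negative and 0 and 257 CPM in GFP-positive libraries. Atg101 has exons of only 1597 bases, and in the 3 libraries with counts for it, it stood above its partners per length: 69.0 and 244 FPKM in GFP-negative libraries, against 0 and 130 FPKM in GFP-positive libraries. Ulk1 had 6.72 and 0.28 against 0 and 1.44 FPKM, and Atg13 12.2 and 2.45 against 11.2 and 1.44 FPKM, the whole of the class in GFP-positive replicate 1. The class had a median log2 change of 1.10, of 0.56 without GFP-positive replicate 1 and of -0.60 without GFP-negative replicate 1.

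The PI3K complexes make PI3P, with Atg14 directing the complex to the forming autophagosome and Uvrag to endosomes. Pik3c3, the lipid kinase VPS34, had 25.2 and 12.3 CPM in GFP-negative and 0 and 2.78 CPM in GFP-positive libraries. The groups did not overlap, with a log2 change of 3.75 ± 4.93, and of 2.75 without GFP-positive replicate 1. Becn1, the Beclin 1 scaffold shared by both complexes, had 132 and 157 CPM in GFP-negative and 0.13 and 107 CPM in GFP-positive libraries. Here too both GFP-negative libraries lay above, but the GFP-positive replicates differed from each other far more than replicate 2 differed from the GFP-negative libraries. Becn1, on chromosome 11 (mm10) from 101285952 to 101302286, shares 3104 exonic bases with Cntd1 on the other strand, which had 503 and 1278 counts in GFP-negative and 0 and 344 counts in GFP-positive libraries, so these reads cannot be told apart with certainty.

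Uvrag, which joins Beclin 1 in the endosomal complex, ran the other way. It had 22.5 and 2.37 CPM in GFP-negative and 464 and 29.1 CPM in GFP-positive libraries, so both GFP-negative libraries lay below. The log2 change was -4.31 ± 2.74 and was -1.23 without GFP-positive replicate 1, a library with 15.98 times the level of the other GFP-positive library. With library totals or FPKM in place of TMM scaling the groups overlapped. Uvrag lies on chromosome 7 (mm10) from 98885021 to 99141141, and the antisense gene Gm45187 shares 1589 exonic bases with it. Atg14 had 13.5 and 1.76 CPM in GFP-negative and 0 and 17.0 CPM in GFP-positive libraries, and Nrbf2, a regulatory subunit of the ATG14 complex, 28.9 and 15.9 against 0 and 31.6 CPM. For both, GFP-positive replicate 2 was the highest library in CPM, but in FPKM GFP-negative replicate 1 was, with 4.21 against 3.18 FPKM for Atg14 and 21.0 against 13.8 FPKM for Nrbf2. Pik3r4, the pseudokinase VPS15, had 9.87 and 2.43 against 0 and 8.47 CPM. Ambra1, a Beclin 1 activator, had 9.75 and 0 against 0 and 4.77 CPM, with 0 counts in a library of each group. Rubcn, an inhibitor of the UVRAG complex, had 21.8 and 3.21 against 0 and 7.47 CPM. The class had a median log2 change of 0.78, which was -0.22 without GFP-positive replicate 1 and -0.51 without GFP-negative replicate 1.

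The lipid transfer and WIPI class had 7 of 8 fitted changes above 0, where 68.1% of all tested genes lay above 0, and a median of 1.92. The median was 0.92 without GFP-positive replicate 1 (0.29 for all tested genes) and 0.69 without GFP-negative replicate 1 (0.40 for all tested genes). With all 4 libraries, 0 of 8 members were called, beside 0.0982% of all tested genes. Wipi1 and Wipi2 encode PI3P readers, of which WIPI2 recruits ATG16L1. Wipi2 had 74.3 and 17.6 CPM in GFP-negative and 0.13 and 17.4 CPM in GFP-positive libraries. The groups did not overlap, yet GFP-negative replicate 2 and GFP-positive replicate 2 were nearly level. Wipi1 had 20.02 and 0.84 against 0 and 1.27 CPM, so a high value stood in GFP-negative replicate 1 only. Wdr45, the WIPI4 gene on the X chromosome, had 30.5 and 42.4 CPM in GFP-negative and 243 and 24.9 CPM in GFP-positive libraries. Its log2 change of -1.88 ± 2.88 was 0.55 without GFP-positive replicate 1.

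Atg2a and Atg2b, the bridges that carry lipid from the endoplasmic reticulum, were scarce in every library. Atg2b had 6.41 and 1.58 CPM in GFP-negative and 0 and 0.77 CPM in GFP-positive libraries, which did not overlap (log2 change 3.37 ± 4.50, and 2.37 without GFP-positive replicate 1). Atg2b shares 383 exonic bases with Gskip on the other strand. Atg2a had 4.03 and 0.63 against 0 and 4.47 CPM. Atg9a, the scramblase on the vesicles that seed the membrane, had 21.9 and 3.57 against 0 and 5.99 CPM, and 1832 of its exonic bases also belong to Gm29253.

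Vmp1 and Tmem41b encode scramblases of the endoplasmic reticulum that act with ATG2. Vmp1 had 145 and 341 CPM in GFP-negative and 81.6 and 161 CPM in GFP-positive libraries, one of the members present at a substantial level everywhere. GFP-negative replicate 1 lay below GFP-positive replicate 2 on this scale, and the log2 change was 1.002 ± 2.11, but -4.34 with upper quartile scaling. That scaling sets each library by the upper quartile of its counts, which is low in GFP-positive replicate 1. In FPKM, 50.7 and 73.4 against 13.6 and 33.8, the groups did not overlap, so whether they do depends on the scaling. Vmp1 lies on chromosome 11 (mm10) from 86583865 to 86683836, and shares 92 exonic bases with Mir21a. Tmem41b had 59.8 and 24.6 CPM in GFP-negative and 0.053 and 24.8 CPM in GFP-positive libraries, with replicates 2 of both groups nearly level.

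The conjugation system joins the ubiquitin-like ATG12 to ATG5 through the E1 enzyme ATG7 and the E2 enzyme ATG10. Atg5 had 35.9 and 75.2 CPM in GFP-negative and 635 and 50.4 CPM in GFP-positive libraries. The other 3 libraries lay within a narrow range, far below GFP-positive replicate 1, so the log2 change of -2.63 ± 2.15 was 0.13 without that library. Atg5 lies on chromosome 10 (mm10) from 44268358 to 44364291. Atg12, whose product is joined to ATG5, had no counts in the same library and had 90.9 and 23.2 CPM in GFP-negative and 0 and 34.5 CPM in GFP-positive libraries. Per length, Atg5 stood at 20.6 and 26.6 FPKM and Atg12 at 15.9 and 2.50 FPKM in GFP-negative libraries, against 174 and 17.4 FPKM and 0 and 3.62 FPKM in GFP-positive libraries. On that scale Atg5 was thus the higher of the partners in every library, while in CPM Atg12 was higher in GFP-negative replicate 1. The order there depends on annotated exon lengths of 2352 bases for Atg5 and 7711 bases for Atg12.

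Atg7 had 29.2 and 12.8 CPM in GFP-negative and 6.02 and 55.8 CPM in GFP-positive libraries, so the GFP-positive libraries enclosed the others. Atg10 had 16.4 and 27.9 CPM in GFP-negative and 0 and 14.7 CPM in GFP-positive libraries. The groups did not overlap, with a log2 change of 1.59 ± 4.44, and of 0.59 without GFP-positive replicate 1. Atg16l1, which places the conjugate on the membrane, had 23.4 and 3.18 against 0 and 8.88 CPM. The class had a median log2 change of 1.58, of 0.58 without GFP-positive replicate 1 and of -0.48 without GFP-negative replicate 1.

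The fusion class held Rab7 and Vamp8, which were abundant in most libraries. Rab7, the small GTPase of late endosomes and lysosomes, had 423 and 299 CPM in GFP-negative and 310 and 357 CPM in GFP-positive libraries. In CPM its highest library had 1.42 times the level of its lowest, the smallest such ratio among the 13 members with counts in all 4 libraries, with a log2 change of 0.11 ± 1.70, and of 0.009 without GFP-positive replicate 1. With other scalings it was less even: it had 219 and 95.2 FPKM in GFP-negative and 76.8 and 111 FPKM in GFP-positive libraries, and its log2 change was -5.76 with upper quartile scaling. Rab7 lies on chromosome 6 (mm10) from 87999106 to 88045270. A processed pseudogene, Rab7-ps1, had 987 and 435 counts in GFP-negative and 338 and 534 counts in GFP-positive libraries, few beside the 48044 and 19898 and the 11640 and 22775 counts of Rab7.

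Vamp8, the lysosomal SNARE that also serves secretion in many blood cells, had 59.5 and 532 CPM in GFP-negative and 1048 and 678 CPM in GFP-positive libraries. The GFP-negative values were both lower than the GFP-positive ones, in CPM and in FPKM, where it had 34.8 and 191 against 293 and 238 FPKM. The log2 change was -1.55 ± 1.46 with an unadjusted p of 0.288 in edgeR's test, and was -7.67 with upper quartile scaling. Leaving out a library, it was -0.70 without GFP-negative replicate 1, -3.79 without GFP-negative replicate 2 (edgeR's unadjusted p 0.035, not called), -1.20 without GFP-positive replicate 1 and -1.83 without GFP-positive replicate 2. GFP-negative replicate 1 had the least of both Vamp8 and the macrophage markers, whose sums were 1211 and 21930 CPM in GFP-negative and 116700 and 68360 CPM in GFP-positive libraries. Of the 14 macrophage markers, 10 lay below without overlap, where 6.63% of all tested genes did. Chil3, Lyz2 and Ctss, or 3 of the 14, were called lower, where 0.092% of all tested genes were. The part of macrophage RNA in the Vamp8 values was not tested. Vamp8 lies on chromosome 6 (mm10) from 72385223 to 72390703.

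Of the other SNAREs, Stx17, which sits on the closed autophagosome, had 16.1 and 3.33 CPM in GFP-negative and 0.21 and 2.45 CPM in GFP-positive libraries, without overlap (log2 change 2.87 ± 4.77, and 1.98 without GFP-positive replicate 1). The change was 1.32 without GFP-negative replicate 1 and turned to -0.57 with upper quartile scaling. Snap29, which bridges STX17 and VAMP8, had 17.7 and 19.3 CPM in GFP-negative and 200 and 17.2 CPM in GFP-positive libraries. Its level was even in 3 libraries, and GFP-positive replicate 1 had 11.6 times the level of the other GFP-positive library, and the log2 change of -2.55 ± 3.33 was 0.10 without replicate 1. The tethers Epg5 and Plekhm1, which link RAB7 to the vesicle, were scarce: 2.86 and 0 against 0 and 4.24 CPM for Epg5, and 6.16 and 0.33 against 0 and 4.03 CPM for Plekhm1. The class had a median log2 change of -0.23. It was 0.06 with DESeq2 size factors, 0.44 with library totals and -3.37 with upper quartile scaling. Leaving out a GFP-negative library gave -1.60 without replicate 1 and 0.40 without replicate 2.

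**Figure D4:**
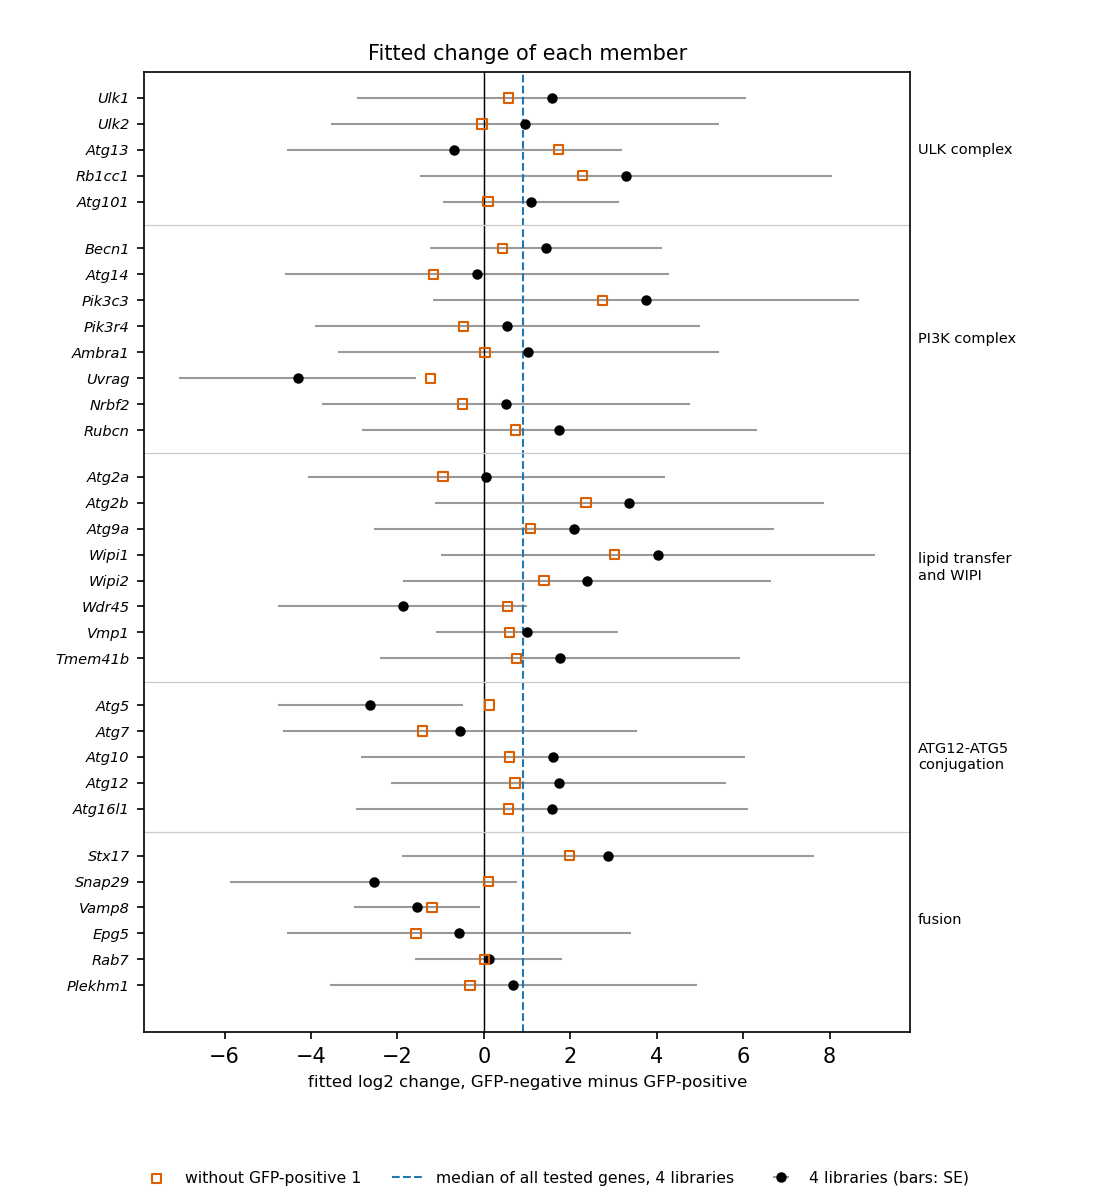
Fitted log2 change of each member, GFP-negative minus GFP-positive, with all 4 libraries (filled circles, bars are SE) and without GFP-positive replicate 1 (open squares). The dashed line is the median of all tested genes, 0.91. Of the 9 members left of 0 with 4 libraries, Atg13, Wdr45, Atg5 and Snap29 lie right of 0 without that library, while Uvrag, Vamp8, Atg14, Atg7 and Epg5 stay left of it. Ulk2, Pik3r4, Nrbf2, Atg2a and Plekhm1 move the other way, from right to left of 0.

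Over the whole machinery, both GFP-negative libraries lay above both GFP-positive libraries for 7 of 32 members, beside 25.2% of all tested genes, and below them for 2 of 32, beside 6.63%. These shares are near those of all genes. The 7 were Rb1cc1, Becn1, Pik3c3, Atg2b, Wipi2, Atg10 and Stx17, and the 2 were Uvrag and Vamp8. In FPKM the counts were 9 (31.6% of all genes) and 1 (4.53%), with Vmp1 and Tmem41b added and Uvrag lost. GFP-negative replicate 1 was the highest library for 17 of 32 members, against 36.3% of all tested genes. Of the other libraries, GFP-negative replicate 2 was highest for 4 (26.8% of all genes), GFP-positive replicate 1 for 6 (14.6%) and GFP-positive replicate 2 for 5 (22.3%). In FPKM the counts in the same order of libraries were 23, 3, 5 and 1 (50.6%, 21.6%, 11.5% and 16.3% of all genes), so the highest library depends on the scale. In CPM the members highest in GFP-positive replicate 1 were Atg13, Uvrag, Wdr45, Atg5, Snap29 and Vamp8.

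GFP-positive replicate 2, the GFP-positive library with wide detection, is compared with each GFP-negative library in turn, so these values share that library and have no replicate check. GFP-negative replicate 1 was higher for 22 of 32 members with a median log2 ratio of 0.46, where 51.0% of all tested genes with counts in both were higher. In FPKM it was higher for 29 of 32 with a median of 1.20, where 66.6% of all genes were higher. GFP-negative replicate 2 was higher for 13 of 30 with a median of -0.30, where 48.8% were higher, and in FPKM for 14 of 30 with a median of -0.27, where 49.8% were. The class medians in CPM for GFP-negative replicates 1 and 2 were 1.48 and 0.72 (ULK), 0.26 and -1.22 (PI3K), 1.57 and 0.003 (lipid transfer), 0.16 and -0.57 (conjugation) and 0.14 and -0.26 (fusion). Those of all tested genes were 0.05 and -0.04. In FPKM the PI3K medians were 1.009 and -1.18, beside 0.79 and -0.007 for all tested genes. Within the GFP-negative group, 22 of 30 members were higher in replicate 1 than in replicate 2, where 50.9% of all tested genes were. The median log2 ratio was 1.79 for the members, against 0.06 for all tested genes. In FPKM 25 of 30 members were higher, where 64.1% of all tested genes were, with medians of 2.49 against 0.76.

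The transcription factors TFEB and TFE3 are known to bind a DNA site with the core CACGTG in front of many autophagy and lysosome genes, so that core was looked for in the members' promoters. RefSeq promoters (build GRCm38.p6, from 250 bases before to 50 bases after each start) matched 26 of the 32 genes; Rb1cc1, Atg12, Atg16l1, Epg5, Becn1 and Pik3c3 had no entry. CACGTG, which reads the same on both strands, was found for 5 of the 26 genes, or 19.2%, against 11.3% of 11351 symbols of the table with a promoter entry. The 5 were Atg5, Atg7, Atg14, Nrbf2 and Rubcn. The 60 bases around the core are shown for the 4 genes where they hold no annotated exon, written from 5′ to 3′ on the gene's strand, with the core in capitals.
Atg5 (chr10:44268279-44268338, plus strand, outside annotated genes): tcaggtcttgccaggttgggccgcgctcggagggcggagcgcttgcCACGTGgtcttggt
Atg7 (chr6:114670937-114670996, plus strand, in an intron of a longer Atg7 transcript): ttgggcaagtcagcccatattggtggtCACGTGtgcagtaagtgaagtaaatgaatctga
Nrbf2 (chr10:67285457-67285516, minus strand, outside annotated genes): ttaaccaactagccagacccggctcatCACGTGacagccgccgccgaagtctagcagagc
Rubcn (chr16:32868422-32868481, minus strand, in an intron of a longer Rubcn transcript): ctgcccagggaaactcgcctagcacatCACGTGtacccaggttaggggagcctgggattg

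The core begins 14 bases before the RefSeq start in Atg5, 132 bases before it in Atg7, 208 in Nrbf2 and 88 in Rubcn. The 5 genes had fitted log2 changes from -2.63 to 1.74 with a median of -0.16, and the 21 members whose promoter lacks the core from -4.31 to 4.03 with a median of 1.002. Without GFP-positive replicate 1 the medians were -0.50 and 0.55, and the ranges overlapped again. Tfeb itself had 3.75 and 2.42 CPM in GFP-negative and 0 and 33.4 CPM in GFP-positive libraries, and Tfe3 31.2 and 8.17 against 0.11 and 18.8 CPM. A match of letters is a description and shows no binding.

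Genes that work beside the machinery were no clearer. Of the 10 genes of ATG8 conjugation, which attach LC3 and GABARAP to the membrane, 0 were called (median log2 change 0.73), and Gabarap and Map1lc3b had the smallest p. Gabarap had 162 and 472 CPM in GFP-negative and 1237 and 645 CPM in GFP-positive libraries. Map1lc3b had 225 and 973 against 1548 and 672 CPM, and reads of the LC3 part of the probe were not told apart from it. Of 12 genes of the HOPS tether and its fusion partners, 0 were called (median 0.21), and Vps41, a HOPS subunit, had 99.3 and 47.6 against 715 and 65.3 CPM. Rilp, a RAB7 effector, had 0.15 and 0 against 0 and 4.57 CPM. Of 12 genes of PI3P turnover and ATG9 traffic, 0 were called (median 1.65). Inpp5e, a phosphoinositide phosphatase, had 12.8 and 5.44 against 0 and 0.38 CPM, and Atg9b, the second ATG9 gene, 1.67 and 0.48 against 0 and 0.35 CPM. Of 19 upstream kinases and transcription factors, 0 were called (median 0.69). Rptor, the substrate-binding subunit of mTORC1, had 5.01 and 1.006 against 252 and 3.70 CPM, and Rheb, the GTPase that activates mTORC1, 274 and 1260 against 163 and 391 CPM. The medians of these 4 lists were 0.06, -0.18, 0.65 and -0.15 without GFP-positive replicate 1, in the order given.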

How the data were processed

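Counts (whole numbers) and FPKM for every gene symbol in each of the 4 libraries came from a single table that the authors deposited, with units as its column headers name them. Per the labels' protocols, cDNA was primed with oligo(dT), made full length by template switching (SMARTer), amplified by PCR and fragmented with an enzyme, without molecular identifiers or strand marking. Tools named in the submitters' processing notes are cutadapt 1.9, HISAT2 2.2.1, StringTie 2.1.6, DESeq2 and edgeR, with build mm10; the counting program is not given there. Lengths implied by the members' FPKM were 1.12 to 1.19 times the GENCODE M21 exon length, a nearly constant factor.

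Counts were filtered with filterByExpr (minimum count 10), scaled by TMM and tested with edgeR 4.0.16 in R 4.3.3 (glmQLFit and glmQLFTest, group as the only term, threshold 0.05). SEs were taken from the log2 change and its F statistic. Alternatives used DESeq2 1.42.0 and limma 3.58.1. Members, lists and the rule for named genes (all 32 members; of other lists, called genes or the 2 with the smallest p) were chosen with earlier results of these data known. Positions are GENCODE M21, on the authors' build.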

Additional observations from a re-analysis of the deposited data

How the results depend on the processing

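Members called stayed at 0 under every alternative except without GFP-positive replicate 2. Over the refits that leave out a library, members called ranged from 0 to 18, genes called from 1 to 7601, and the members' median from -0.35 to 11.03. With a lone library in a group, that library is assumed to vary like the other group. Genes called were 16, but 0 with upper quartile scaling (1150 at an unadjusted p under 0.05), 5 among genes with counts in all 4 libraries, 63 with DESeq2's Wald test, 0 with limma on log2(FPKM + 1) and on log2(FPKM + 0.1) (408 and 272 at an unadjusted p under 0.05), and 10 with limma at a mean of at least 1 FPKM. Among the 13 members with counts in all 4 libraries the median was -0.41 (-0.06 for all such genes), with class medians of -0.57 (ULK, 1 gene), -1.31 (PI3K, 2 genes), 1.49 (lipid transfer, 4), -1.50 (conjugation, 2) and -0.66 (fusion, 4). The median of all tested genes was 0.91 with TMM, 1.12 with DESeq2 size factors, 0.43 with upper quartile and 1.33 with library totals, and the members' median lay 0.11, 0.13, 0.10 and 0.15 above it.

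The fusion median was 0.059 with DESeq2 size factors, 0.44 with library totals and -3.37 with upper quartile scaling, under which single members ranged from -11.29 to 3.38. Members that changed sign were, with DESeq2 size factors, Atg14 (0.21); with upper quartile scaling, Atg2a (-0.30), Vmp1 (-4.34), Stx17 (-0.57) and Rab7 (-5.76); and with library totals, Atg13 (0.22), Atg14 (0.48), Atg7 (0.0022) and Epg5 (0.14). In GFP-positive replicate 1, where upper quartile scaling rests on low counts, only 22.8% of all symbols had more than 10 counts. The cause of the sign changes was not tested.

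The replicate numbers do not show a shared animal or day, and deviations of same-numbered libraries from their group means correlated at -0.07 across genes. With the replicate block 21 genes and 0 members were called, the members' median was 4.44 (3.92 for all genes), and Atg14 (3.81) and Atg7 (0.076) changed sign.

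Leaving out each library in turn, medians ranged from -0.60 to 13.29 (ULK), -0.51 to 11.96 (PI3K), -0.48 to 12.92 (conjugation) and -1.60 to 2.86 (fusion). The lipid transfer median stayed above 0, from 0.69 to 9.99, and so did the median of all tested genes, from 0.29 to 9.945. Single members whose sign changed ranged from -1.39 to 13.29 (Ulk1), -0.60 to 12.51 (Ulk2), -0.80 to 11.80 (Pik3r4), -10.06 to 11.47 (Ambra1), -0.22 to 12.83 (Rubcn), -1.82 to 10.40 (Atg2a), -0.48 to 12.92 (Atg16l1), -0.16 to 0.39 (Rab7), -2.60 to 10.88 (Plekhm1), -1.71 to 1.73 (Atg13), -0.67 to 17.28 (Atg101), -2.27 to 12.11 (Atg14), -9.89 to 9.70 (Epg5), -0.50 to 13.67 (Nrbf2), -2.74 to 0.55 (Wdr45), -3.52 to 0.13 (Atg5), -3.44 to 0.10 (Snap29) and -1.42 to 1.80 (Atg7). Of the members whose sign held, Vamp8 (from -3.79 to -0.70) and Uvrag (from -6.70 to -1.23) stayed below 0 and the others stayed above it. Depth was high in every library, and the 19 members at 0 counts in GFP-positive replicate 1 limit each change that includes it.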
